A study of Mus musculus with 2 samples.

Results

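The 6 microRNA genes Mir153, Mir149, Mir346, Mir488, Mir326 and Mir342 each lie in an intron of a protein-coding gene with a role in neurons. They were chosen by symbol and host gene, and all 6 were found among the 1973 microRNA genes counted in the newborn mouse midbrain. The midbrain is the upper part of the brainstem and contains dopamine neurons. There was 1 group of strain B6NCrl on postnatal day 0, with 1 small-RNA library labelled as the single midbrain of pup 1 and 1 as that of pup 3. No treatment or allele is labelled, and sex was not collected. Both labels also give the same donor identifier, so each SD and ratio is the spread between 2 pups as labelled, and would not be a spread between animals if that identifier meant 1 animal. With a single group, no condition could be compared and no test between groups was possible. The values below describe levels and the spread between 2 pups.

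An intronic microRNA is transcribed as part of its host's precursor messenger RNA. The nuclear enzyme Drosha cuts the hairpin out, Dicer trims it to a short duplex, and 1 arm of the duplex is usually kept by an Argonaute protein. The kept arm finds its target messenger RNAs mainly through its seed, bases 2 to 8. A host and its microRNA can therefore share a promoter, although processing, decay and promoters inside introns can separate their levels. The hosts were not measured by these libraries, which hold RNA under 30 bases, so the neuronal label of the hosts rests on background knowledge. Ptprn2 encodes a phosphatase-like membrane protein of dense-core vesicles, Grid1 a delta-type glutamate receptor, and Astn1 an adhesion protein of migrating neurons. Gpc1 encodes the heparan sulphate proteoglycan glypican, Arrb1 a beta-arrestin that uncouples activated receptors, and Evl an actin regulator of the Ena/VASP family. The last 3 hosts are also known from many other cell types.

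The mature sequences are shown because the seeds define what each microRNA can pair with, and because the counts do not separate the arms. They are RefSeq sequences on GRCm38.p6, 5′ to 3′, and the capitals mark the seed.
miR-149-5p: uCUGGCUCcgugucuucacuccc
miR-149-3p: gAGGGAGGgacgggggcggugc
miR-342-5p: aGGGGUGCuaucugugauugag
miR-342-3p: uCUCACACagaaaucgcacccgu
miR-153-5p: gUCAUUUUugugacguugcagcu
miR-153-3p: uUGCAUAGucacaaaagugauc
miR-488-5p: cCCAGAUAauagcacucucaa
miR-488-3p: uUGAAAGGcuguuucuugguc
miR-346-5p: uGUCUGCCcgagugccugccucu
miR-346-3p: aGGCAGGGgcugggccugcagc
miR-326-5p: gGGGGCAGggccuuugugaaggcg
miR-326-3p: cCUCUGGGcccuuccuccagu

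No pair of these 12 sequences shared a seed, so the 6 genes belong to 6 different seed groups. Each of the 12 was found in the GENCODE M21 transcripts under its own gene and under no other, and no hairpin shared a run of 20 bases with another hairpin. The longest run that any of them had in common with another annotated hairpin was 15 bases, for Mir149. Of all 1973 genes, 919 had a run of 20 bases in common with another hairpin. The whole genome was not searched.

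All 6 hairpins and their hosts are on the plus strand of GRCm38, and every annotated host transcript that spans a hairpin carries it in an intron and in no exon. Mir149 (ENSMUSG00000065470.1, chromosome 1, 92850378 to 92850443) lies in intron 1 of Gpc1, 2.90 kb before the next exon. Mir326 (ENSMUSG00000065571.1, chromosome 7, 99552269 to 99552363) also lies in intron 1 of its host Arrb1, an intron of 46.5 kb. Mir346 (ENSMUSG00000065481.1, chromosome 14, 34894609 to 34894706) lies in intron 2 of Grid1, which spans 123.0 kb, with 71.9 kb to the exon before it and 51.0 kb to the exon after it. These 3 introns are the longest or second longest of their transcripts, as is intron 3 of Evl at 20.2 kb, which holds Mir342 (ENSMUSG00000065436.1, chromosome 12, 108658620 to 108658718).

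The remaining hairpins lie in shorter introns. Mir153 (ENSMUSG00000065538.1, chromosome 12, 117250817 to 117250885) lies in intron 19 of Ptprn2, which is 4.90 kb long, 765 kb downstream of the start of the 791 kb transcript. Mir488 (ENSMUSG00000070103.2, chromosome 1, 158505625 to 158505733) lies in intron 5 of Astn1, 155 bases after an exon. Both also lie within an antisense gene, Gm5441 over Mir153 and Gm37679 over Mir488. None of the 6 hairpins had an opposite-strand read. Libraries of RNA under 30 bases were not made to show long antisense transcripts, so nothing is read from this about those genes. No other microRNA gene of the annotation lies in the same hosts or within 10 kb, so each of the 6 stands alone in its intron.

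**Figure D1:**
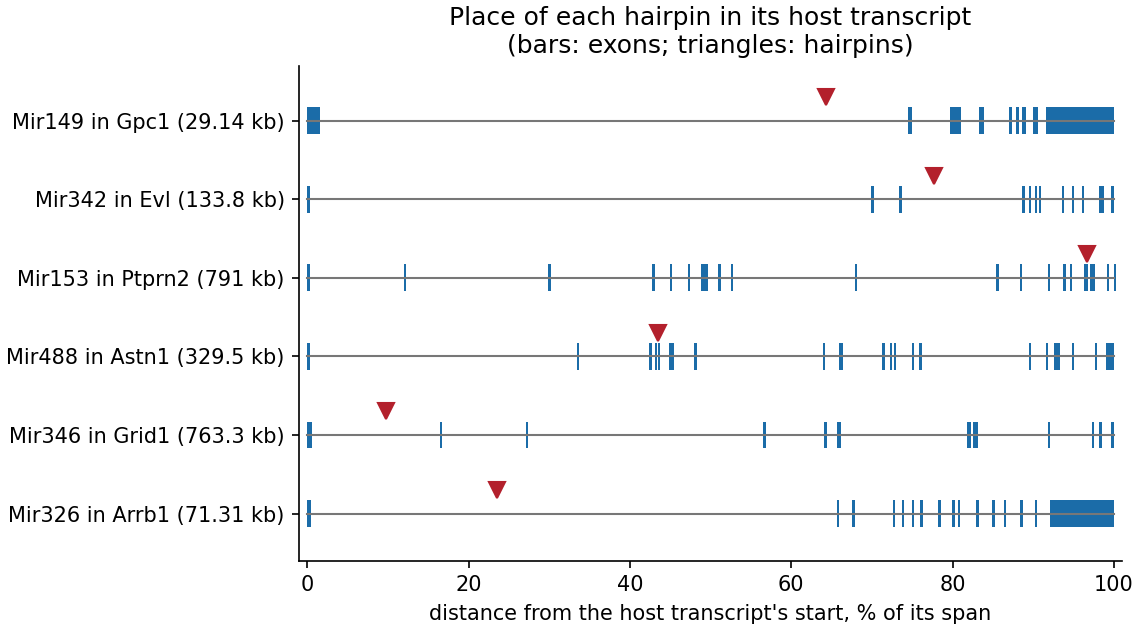
Each line is the longest coding transcript of the host with the hairpin in an intron, scaled to its own span in kb given at the left, from its start at 0% to its end at 100%. Bars are exons, the narrowest drawn at a minimum width, and triangles are hairpins. Mir153 sits at 96.7% of Ptprn2 and Mir346 at 9.76% of Grid1.

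The libraries held 2337113 own-strand reads on microRNA genes in pup 1 and 3195277 in pup 3, which are 42.8% and 43.3% of all reads. Another 38.7% and 39.8% of reads mapped to several places and entered no gene. Levels are CPM, own-strand reads of a gene per 1000000 own-strand reads on all genes, with exact (Clopper-Pearson) 95% intervals for single libraries. Intervals cover counting error only. Of the neuron markers, 9 of 10 were measured and 6 detected, with 35379 CPM together in pup 1 and 39178 in pup 3. They were led by Mir137. Since 7 of the 9 hold a run of 20 bases that recurs in a second hairpin, they may be undercounted. Markers of other cells ranged from Mir126a of endothelium at 36188 and 30095 CPM down to muscle at 19.7 CPM in both pups, where Mir1a-1, Mir133a-1 and Mir133a-2 had 0 reads. These 3 muscle hairpins also hold such a run.

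All 6 intronic microRNAs were detected, with at least 10 reads in each library. Of all 1973 genes, 18.2% were. The 6 were chosen with their levels known, so nothing is read from that difference. Together they took 4.72% of own-strand reads in pup 1 (95% interval 4.70 to 4.75) and 4.14% in pup 3 (4.12 to 4.16), a mean of 4.43% ± 0.410 (SD, n = 2). Mir149, Mir342 and Mir153 made up 98.2% of these reads, so the joint share is almost wholly theirs.

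Mir149 was the most abundant of the 6. It had 59774 reads in pup 1 and 69273 in pup 3, or 25576 CPM (25374 to 25779) and 21680 CPM (21520 to 21840). The mean of 23628 ± 2755 CPM (SD, n = 2) put it in place 9 among all 1973 genes. Mir149 alone held 54.2% of the reads of the 6 in pup 1 and 52.3% in pup 3. The next genes in level were Mir100 above it, at 24264 ± 2603 CPM, and Mir30e below it, at 22260 ± 1504 CPM, and neither differed from it by more than the spread between pups.

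Mir342, a microRNA known from both brain and white blood cells, had 28216 reads in pup 1 and 29188 in pup 3. These are 12073 CPM (11933 to 12214) and 9135 CPM (9031 to 9240), with a mean of 10604 ± 2078 CPM (n = 2) and place 21. Its level lay between those of Mir23b at 10985 ± 394 CPM and Mir30a at 9746 ± 688 CPM.

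Mir153, known to repress alpha-synuclein and proteins of synaptic vesicle release, had 20336 reads in pup 1 and 31640 in pup 3. These are 8701 CPM (8583 to 8821) and 9902 CPM (9794 to 10011), with a mean of 9302 ± 849 CPM (n = 2) and place 25. It was lower than Mir342 in pup 1 and higher in pup 3. Nearest in level were Mir411 at 9330 ± 1249 CPM and Mir17 at 8870 ± 894 CPM.

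The other hairpins formed a lower tier. Mir488 had 804 reads in pup 1 and 1256 in pup 3, or 344 CPM (321 to 369) and 393 CPM (372 to 415), a mean of 368.5 ± 34.7 CPM in place 161. Its neighbours in level were Mir148b at 369.0 ± 8.77 CPM, which lies in an intron of Copz1, and Mir331 at 351 ± 26.0 CPM.

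Mir346 had 1018 reads in pup 1 and 722 in pup 3, so the deeper library held fewer of them. Its levels were 436 CPM (409 to 463) and 226 CPM (209.8 to 243), with a mean of 331 ± 148 CPM in place 165. Mir135a-1 at 332 ± 39.1 CPM and Mir668 at 326 ± 49.2 CPM were its neighbours in level, and both varied less between the pups.

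Mir326, known for repressing the Hedgehog signal transducer Smoothened in cerebellar progenitors, was the least abundant. It had 212 reads in pup 1 and 274 in pup 3, or 90.7 CPM (78.9 to 103.8) and 85.8 CPM (75.9 to 96.5). The mean was 88.2 ± 3.51 CPM in place 231, between Mir673 at 89.7 ± 9.46 CPM and Mir670 at 88.2 ± 16.4 CPM. With 3 reads taken as the upper limit for a count of 0, a simpler rule than the exact intervals, that limit was 1.28 CPM in pup 1. This is far under these levels.

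**Figure D2:**
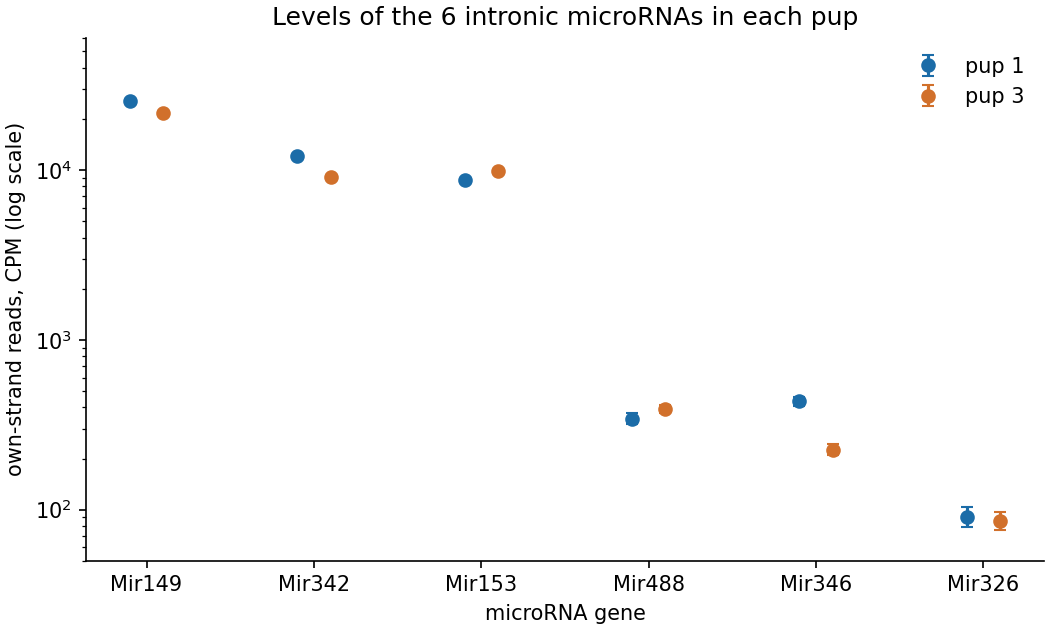
Points are the own-strand CPM of each gene on a log axis, blue for pup 1 and orange for pup 3, and bars are exact 95% counting intervals, most of them smaller than the point. Mir149, Mir342 and Mir153 lie between 8701 and 25576 CPM and the other 3 genes between 85.8 and 436 CPM.

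The order of mean levels was Mir149, Mir342, Mir153, Mir488, Mir346 and Mir326, and only part of it stood clear of the spread between pups. Mir149 lay apart from Mir342, being 2.12-fold higher in pup 1 and 2.37-fold in pup 3. The step from Mir153 to Mir488 was the widest at 25.3-fold in pup 1 and 25.2-fold in pup 3. Mir346 lay apart from Mir326, by 4.80-fold in pup 1 and 2.63-fold in pup 3. Mir342 and Mir153 could not be ordered, since their ranges overlapped and the ratio of Mir342 to Mir153 was 1.39 in pup 1 and 0.922 in pup 3. Mir488 and Mir346 could not be ordered either, with a ratio of Mir488 to Mir346 of 0.790 in pup 1 and 1.74 in pup 3.

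Each small-RNA read comes from a whole mature strand, so these levels compare reads per gene and not reads per base. Divided by hairpin length, the means were 358 CPM per base for Mir149, 135 for Mir153 and 107 for Mir342, then 3.38 for Mir488, 3.37 for Mir346 and 0.929 for Mir326. Per base, Mir153 thus stood above Mir342, and the other places were as before.

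The pups differed in these genes by unequal amounts. Scaled by TMM, which corrects for unequal composition, the log2 ratio (pup 3 over pup 1) was -0.29 for Mir149, -0.45 for Mir342, 0.13 for Mir153, 0.14 for Mir488, -0.998 for Mir346 and -0.13 for Mir326. Over the 286 genes with a mean of at least 50 reads the median absolute log2 ratio was 0.15. Mir153, Mir488 and Mir326 were below that median, Mir149 and Mir342 above it, and Mir346 far above it. Lying above a median is not unusual in itself. By absolute ratio Mir149 was in place 72 and Mir342 in place 38 of the 286. The counting interval of Mir326, 0.760 to 1.10-fold, included equality, so no difference between the pups was detectable for it at this depth. In dissected tissue, fewer cells of a type and less of a microRNA per cell cannot be told apart.

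Mir346 was 2.00-fold higher in pup 1 (counting interval 1.82 to 2.20-fold). Its ratio was the sixth most extreme of the 286 genes and the third most extreme among those higher in pup 1. No member passed 2-fold, and 1.75% of all tested genes did, but Mir346 missed that line by a margin smaller than its counting error, as the log2 ratio shows. With DESeq2 size factors its ratio was -1.01 and it passed. Under that scaling 6 of the 286 genes passed 2-fold, Mir346 included. At 1.5-fold, Mir346 was 1 of 6 members past the line, beside 6.64% of all tested genes in either direction and 4.55% lower in pup 3. Among 81 other genes with mean counts within 2-fold of its own, 1 had a lower ratio, Mir181a-2 at -1.49, named after its values were seen, and their median was 0.02. This comparison has 1 library per pup and no replicate check.

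Base composition moved with this ratio. Mir346 has a hairpin GC content of 65.3%, and across the 286 genes Spearman's rho of GC content with the log2 ratio was -0.198, a description over genes that share the same pair of libraries. The 19 tested hairpins with at least that GC content had a median log2 ratio of -0.30, and Mir346 was the lowest of them. Less the linear trend on GC, its ratio was -0.90. Red cell markers, 2 of 2 detected, had 106.5 CPM together in pup 1 against 60.1 in pup 3, with Mir451a at a log2 ratio of -1.53 and Mir144 at 0.48. Epithelial markers, 4 of 6 detected, summed to 116 and 626.5 CPM. The part of these cells in the ratio of Mir346 was not tested.

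Mir342 was 1.37-fold higher in pup 1 (counting interval 1.35 to 1.39-fold), and 24 tested genes had a lower ratio. Since Mir342 is known from white blood cells, the leukocyte and microglia markers are given beside it. Of these, 4 of 5 were measured, all 4 were detected and none was at 0. Their sum was 668 CPM in pup 1 against 597 CPM in pup 3, with log2 ratios from -0.36 to -0.01, the last of which, of Mir223, was above 0 with plain CPM. Their part in the ratio of Mir342 was not tested. Mir149 was 1.22-fold higher in pup 1 (1.21 to 1.24-fold). Mir153 was 1.10-fold higher in pup 3 (1.08 to 1.12-fold), as was Mir488 (1.01 to 1.21-fold). The summed neuron markers had a log2 ratio of 0.15, but among the 5 tested 4 were lower in pup 3 and Mir137 carried the sum.

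**Figure D3:**
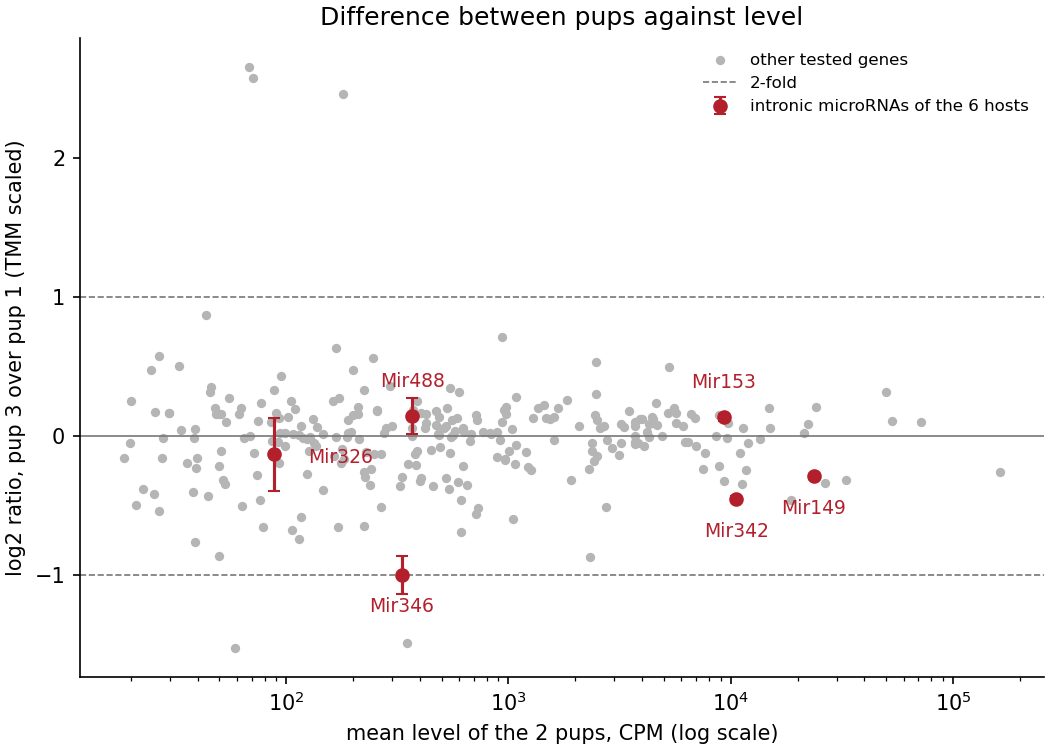
The TMM-scaled log2 ratio of pup 3 over pup 1 is plotted against the mean CPM on a log axis for 286 genes, with the 6 intronic microRNAs in red, 95% counting intervals as bars and 2-fold as dashed lines. Mir346 sits on the lower 2-fold line and the other 5 red points lie between -0.45 and 0.14.

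The hairpins also differed in base composition. Mir149 is the most GC-rich at 68.2%, above 96.1% of the 359 detected hairpins, and Mir153 and Mir488 are the least at 42.0% and 42.2%. Predicted folding energy followed a like order, from -0.556 kcal/mol per base for Mir149 to -0.355 for Mir488, beside a median of -0.434 over detected hairpins. Across the detected genes rho of GC content with level was -0.0351, a weak relation. The hairpins at the ends of this range are shown with the mature arms in capitals, from RefSeq on GRCm38.p6, at chr1:92850378-92850443 and chr1:158505625-158505733 on the plus strand.
Mir149: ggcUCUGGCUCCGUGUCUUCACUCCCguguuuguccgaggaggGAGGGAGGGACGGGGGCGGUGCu
Mir488: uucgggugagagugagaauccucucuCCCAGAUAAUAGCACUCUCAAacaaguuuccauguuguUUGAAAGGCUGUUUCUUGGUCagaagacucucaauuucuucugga

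The arms take up 45 of the 66 bases of the Mir149 hairpin and 42 of the 109 bases of Mir488. The Mir149 3p arm is a run of purines broken by few other bases, with 81.8% GC.

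Only 1 of the 12 seeds recurred in a further detected gene. Among 1738 RefSeq mature sequences, the seed of miR-326-3p recurs in miR-330-5p, from the hairpin Mir330. Both are shown with the shared seed in capitals, since the Mir326 hairpin had fewer reads than that of Mir330.
miR-326-3p: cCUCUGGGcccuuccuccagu
miR-330-5p: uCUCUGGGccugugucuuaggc

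Mir330 had 2016 reads in pup 1 and 2909 in pup 3, or 863 and 910.4 CPM, a mean of 886.5 ± 33.8 CPM. Mir326 thus had 0.0995 of the level of Mir330, and the ranges did not overlap. The reads are of both arms together, so the levels of the arms that carry the seed are not known. The seed of miR-149-3p recurs in 4 mature sequences, of Mir7016, Mir1943, Gm27775 and Gm27740, none of them detected, with at most 14 reads in a library. The seed of miR-346-3p recurs in that of Mir7001, which had 0 reads in both pups. The other 9 seeds recur in no other mature sequence of the table.

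Matches of bases 2 to 7 alone were found for several arms. Those named here may not be all, since not every chromosome was listed. That of miR-149-5p recurs in mature sequences of Mir7688, Mir3064 and Mir3085, detected at 14.2, 12.2 and 6.26 CPM, and of Mir7652, which was not detected. Those of miR-342-5p recur in Mir6931 and Mir6943 and that of miR-346-3p in Mir7087, none of them detected. More abundant than these was Mir448, in an intron of the serotonin receptor gene Htr2c, whose 3p arm shares bases 2 to 7 with miR-153-3p. Mir6335, which also shares them, had 0 reads in both pups.
miR-153-3p: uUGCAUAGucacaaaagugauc
miR-448-3p: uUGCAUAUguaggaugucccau

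Mir448 had 338 reads in pup 1 and 570 in pup 3, a mean of 162 ± 23.9 CPM, so Mir153 was 57.6-fold more abundant by mean level. As with Mir153, the ratio of Mir448 was above 0 on the log2 scale, at 0.25. The plot of all detected genes by rank places the 6 within the whole profile.

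Against other intronic hairpins, the 6 covered a broad part of the range. In all, 672 genes lay in an intron of a protein-coding gene on its strand and in no exon of it, and 139 of them were detected, with a median of 196 CPM. Within these 139, Mir149 ranked 4, Mir342 11, Mir153 12, Mir488 60, Mir346 61 and Mir326 84. Mirlet7g in Wdr82, of the let-7 family that accumulates with differentiation, led them at 71710 ± 5418 CPM. The 6 made up 4.43% of all own-strand reads, beside 40.0% for all 672. The other detected hairpins, outside such introns, numbered 220 with a median of 252 CPM.

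A list of 18 further hairpins had hosts known from brain. Of these, 17 were detected, with a median of 448 CPM and a joint share of 2.55% ± 0.00663 of own-strand reads. By the annotation, 16 of the 18 lay in an intron of the named host and in no exon of it, and the median over the detected ones among these was 211 CPM. Mir128-1 in R3hdm1, a microRNA that damps neuronal excitability, led the list at 7698 ± 263 CPM but holds a run that recurs elsewhere. Mir598 in Xkr6 followed at 6398 ± 19.0 CPM and Mir139 in Pde2a, a phosphodiesterase gene, at 4462 ± 382 CPM. By counted reads, Mir149, Mir342 and Mir153 each lay above all 18 hairpins of this list. Of the 18, 4 hold a run that recurs in another hairpin, Mir128-1 and Mir128-2 among them, and may be undercounted. None of the 6 intronic microRNAs holds one, so the order against these 4 holds for counted reads only. The highest hairpin of the list without such a run, Mir598, lay below Mir149, Mir342 and Mir153 in both pups. Mir326 lay below the list's median, whether taken over the detected hairpins, over all 18 (330 CPM) or over those in the named host. Mir488 and Mir346 lay below the first of these medians and above the last. Of its 14 members with enough reads, 1 passed 1.5-fold between pups, Mir224 at a log2 ratio of 0.87, named after its values were seen, and none passed 2-fold.

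A list of 23 hairpins known from widely expressed hosts was fully detected, with a median of 3494 CPM and a joint share of 15.4% ± 1.22. By the annotation, 19 of the 23 lay in an intron of the named host and in no exon of it, and over these 19 the median was 1290.5 CPM. Mirlet7g led it, followed by Mir30e in Nfyc at 22260 ± 1504 CPM and Mir26b in Ctdsp1 at 14890 ± 1848 CPM. Mir149 lay above Mir30e by mean level but within its spread, and Mir342 and Mir153 lay below Mir26b. Of 21 members with enough reads, 17 had a ratio above 0 on the log2 scale and none passed 1.5-fold. Of the 6 intronic microRNAs, 4 had a ratio below 0. Of the 14 hairpins of the brain-host list with enough reads, 8 were above 0 and 6 below. Over all 286 genes, 150 were above and 136 below. With plain CPM 177 were above and 109 below, all 21 of the wide-host list were above, and the same 4 of the 6 were below. The difference between the lists was not tested.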

How the data were processed

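Small-RNA libraries labelled as 2 newborn midbrains were analysed. The authors deposited raw, unscaled counts for each gene, made from alignments to mm10 with the GENCODE M4 annotation, per the deposited descriptions. Which aligner and counter were used is not given in the sources used here. Own-strand counts were used. The 4 rows that name no gene, with 57.2% and 56.7% of reads, stayed out of totals. Identifiers without version were matched to GENCODE M21 (GRCm38), with a symbol for 1894 of 1973 genes. All 6 hairpins matched RefSeq (GRCm38.p6) exactly.

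Genes with at least 10 counts in each library were called detected. Ratios were computed where the mean count reached 50, after TMM scaling (edgeR 4.0.16) with a prior count of 0.5, with exact binomial counting intervals. No p-value was computed. The biological coefficient of variation (edgeR, intercept only) was 0.171. Neighbours in level were called apart where the pup ranges did not overlap and the gap of the means was above the larger SD. Hairpins were folded with RNAfold 2.7.2. A host was a protein-coding gene with the hairpin in an intron of a transcript and in no exon of any. The ratio calculation was first run on simulated counts with counting error only, which says nothing about the spread between pups.

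The members, lists and rules were chosen with earlier results of these data known. Named genes are the 6 members, the genes next in level, genes sharing a seed, and up to 3 of each list by level. Markers at 0 are named too. Alternatives were DESeq2 1.42.0 size factors, plain CPM, either-strand counts, other totals, count minimums, prior counts and folds, reads per base, and each pup alone.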

Additional observations from a re-analysis of the deposited data

How the results depend on the processing

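With 2 libraries of 1 group the SD rests on 2 values, and hosts and arms were not measured. Depth limits Mir326, whose counting interval includes equality, and the place of Mir346 beside the 2-fold line, and the interval of Mir488 starts close to equality. No paired analysis was possible because there is 1 group. The trend on GC content and the restriction to hosts found in the annotation were chosen after seeing the data. No ratio changed sign under the 6 alternatives run for each gene: that of Mir346 ran from -1.01 to -0.90, of Mir342 from -0.47 to -0.40, of Mir149 from -0.30 to -0.17 and of Mir326 from -0.15 to -0.07, while that of Mir153 ran from 0.08 to 0.19 and of Mir488 from 0.09 to 0.19. The number of members past the fold line was 0, and 1 (Mir346) with DESeq2 size factors or at 1.5-fold. Over all 286 tested genes the number was 5, and 6 with DESeq2 size factors or 19 at 1.5-fold. The joint share of 4.43% became 5.30% without the most abundant gene in the total and 1.91% over all reads, by construction of the totals. The number detected was 6 under every minimum tried, up to 50 counts. It could not be otherwise, since the lowest count of a member was 212. Either-strand counts equalled own-strand counts for all 6, so that alternative changed only the totals and the scaling. A prior count of 2 could hardly move a ratio at these counts. All alternatives use the same 2 libraries, so the unchanged signs are no replicate check. The median of the brain-host list, 448 CPM, was 330 CPM over all 18 hairpins and 211 CPM over those in introns of the named host. That of the wide-host list, 3494 CPM, was 4300 CPM without shared runs and 1290.5 CPM over those in introns of the named host. That of all intronic hairpins, 196 CPM, was 0 with undetected genes included. With 2 values, leaving out 1 always moves a mean by the same part of its SD, so it shows nothing about stability. Each level is given by pup above. In the order of levels, 4 of the 6 kept their place in pup 1 alone, in pup 3 alone and per base of hairpin.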
